A study of Mus musculus with 3 samples.

Results

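The genes described here encode the MCM helicase and the factors that load it or act with it at replication origins: Mcm2, Mcm3, Mcm4, Mcm5, Mcm6, Mcm7, Mcm10, Pcna, Cdt1 and Cdc6. These 10 genes, of 55536 annotated genes (22015 nuclear-encoded and protein-coding), were taken by gene symbol, and were chosen by a reading of their levels in these same libraries, so their values are given as a description with no test. RNA came from the nuclear fraction of C57BL/6J mouse bone-marrow-derived macrophages and was sequenced as total RNA after ribosomal RNA depletion. The cells received lipid A, the TLR4-binding moiety of lipopolysaccharide, for 12 h at 100 ng/ml, then a washout of 12 h, then a second dose of 100 ng/ml for 15 min. The 3 libraries form 1 group, biological replicates 1 to 3, and no untreated or single-stimulus library was analysed here. All 3 carry the same donor identifier, and sex and age were not collected. No label says that the cultures were from different animals, so the spread below may in part be technical. The labels name the fraction both nuclear and nucleoplasmic. Replicate 2 started from 500 ng of RNA and the other libraries from 1 µg.

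Before a cell can copy its DNA, origins must be licensed. In G1 the origin recognition complex, with CDC6 and CDT1, loads the MCM helicase, a ring of the products of Mcm2 to Mcm7, onto DNA in an inactive form. In S phase kinases, CDC45, the GINS complex and MCM10 turn it into a moving helicase, and PCNA, the sliding clamp, tethers the polymerases behind it, while geminin and the destruction of CDT1 block a further round of loading. Transcription of many of these genes is driven by E2F factors as cells leave quiescence, and macrophages grown from bone marrow proliferate in response to CSF1, a growth that lipopolysaccharide is known to halt.

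Because E2F factors and the CCAAT-binding factor NF-Y are the textbook regulators of this set, their recognition letters were located in the promoters. RefSeq windows (GRCm38.p6) running from 250 bases before to 50 bases after a start were found for 9 of the 10 genes, and Mcm7 had 2 of them. The E2F-type letters searched were TTTCCCGC, TTTCGCGC, TTTGCCGC and TTTGGCGC, and the CCAAT box was searched as CCAAT, each on both strands. An E2F-type match was present in 6 of the 9 genes (Mcm3, Mcm5, Mcm6, Mcm7, Cdt1 and Cdc6), against 2.26% of 32851 windows of the same length. A CCAAT match was present in 7 of the 9 (Mcm2, Mcm3, Mcm5, Mcm6, Mcm7, Mcm10 and Pcna), against 37.4% of windows. Both were present in 4 genes, all of them helicase subunits, against 0.962% of windows. These 4 windows are printed 5′ to 3′ on the gene's strand because they hold matches of both kinds. Of the other helicase genes, Mcm2 had a CCAAT match at -175 and no E2F-type match, and Mcm4 had no window. Capitals mark every E2F-type and CCAAT match on either strand, so a match on the other strand appears as its reverse complement (ATTGG for the CCAAT box).
Mcm3, chr1:20820263-20820562, minus strand: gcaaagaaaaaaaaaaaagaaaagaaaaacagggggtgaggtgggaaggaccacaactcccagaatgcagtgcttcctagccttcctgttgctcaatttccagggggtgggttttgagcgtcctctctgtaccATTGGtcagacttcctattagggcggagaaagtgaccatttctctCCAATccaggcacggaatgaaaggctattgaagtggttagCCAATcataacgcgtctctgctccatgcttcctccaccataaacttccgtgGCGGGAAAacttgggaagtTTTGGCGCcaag
Mcm5, chr8:75109259-75109558, plus strand: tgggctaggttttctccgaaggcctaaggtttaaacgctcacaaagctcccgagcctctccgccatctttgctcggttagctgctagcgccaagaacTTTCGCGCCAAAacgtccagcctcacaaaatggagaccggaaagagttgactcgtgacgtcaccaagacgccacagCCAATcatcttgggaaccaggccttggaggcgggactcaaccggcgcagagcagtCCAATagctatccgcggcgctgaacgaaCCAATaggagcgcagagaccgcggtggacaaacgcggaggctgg
Mcm6, chr1:128359656-128359955, minus strand: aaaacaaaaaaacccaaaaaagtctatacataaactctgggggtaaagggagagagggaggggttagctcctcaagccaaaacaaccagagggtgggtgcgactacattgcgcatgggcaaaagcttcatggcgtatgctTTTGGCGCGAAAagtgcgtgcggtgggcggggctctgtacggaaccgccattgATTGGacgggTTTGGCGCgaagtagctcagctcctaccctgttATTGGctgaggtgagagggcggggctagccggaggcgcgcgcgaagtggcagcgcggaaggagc
Mcm7, chr5:138171834-138172133, minus strand: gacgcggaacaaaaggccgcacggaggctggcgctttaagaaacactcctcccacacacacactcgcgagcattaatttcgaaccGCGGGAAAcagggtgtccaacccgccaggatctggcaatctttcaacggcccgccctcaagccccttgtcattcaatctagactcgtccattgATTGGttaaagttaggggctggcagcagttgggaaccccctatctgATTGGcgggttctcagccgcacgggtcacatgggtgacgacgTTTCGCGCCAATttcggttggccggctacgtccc

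The match positions differed between these 4 genes (the first transcribed base is counted as 0). In Mcm5 the words TTTCGCGC at -153 and TTTGGCGC on the other strand at -149 overlapped, so they are 1 stretch rather than 2 separate matches. Mcm6 held the same kind of overlapping pair at -110 and -106, with a further TTTGGCGC at -47. In Mcm3 both E2F-type matches lay after the start, at 19 and 38, and in Mcm7 they lay at -165 and 16. CCAAT matches clustered in the proximal window: at -117, -72 and -32 in Mcm3, at -77, -22 and 6 in Mcm5, at -57 and -14 in Mcm6, and at -72, -26 and 23 in Mcm7. A match is a description of letters and says nothing about whether a factor was bound in these cells.

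Replication licensing genes were present at low to moderate levels in these nuclei. At a threshold of at least 1 TPM (a length-corrected abundance that sums to the same total in each library) in all 3 libraries, 9 of the 10 genes were detected, beside a background of 42.8% of nuclear-encoded protein-coding genes. Pcna stood highest at 29.9 ± 6.86 TPM (SD, n = 3), at the 85.4th percentile of detected protein-coding genes by mean TPM. The helicase subunits ran from Mcm6 at 9.73 ± 5.17 down to Mcm4 at 2.93 ± 1.70 TPM (SD, n = 3), the 54.5th and 15.8th percentiles. Cdc6 was below the threshold at a mean of 0.76 ± 0.54 TPM (SD, n = 3). In bulk RNA, fewer cells expressing a gene and less RNA per cell cannot be told apart.

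Among the loading factors, Cdt1, which brings the helicase to the origin, had 8.44, 4.76 and 5.98 TPM in replicates 1, 2 and 3. Cdc6, the ATPase that works with it, had 1.38, 0.51 and 0.39 TPM, from 150, 34 and 40 expected counts. Replicate 1 was the highest library for both, and it was the only library in which Cdc6 passed 1 TPM.

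All 6 helicase subunits were highest in replicate 1. Mcm2, which carries a histone-binding tail, had 6.66, 2.96 and 2.62 TPM in replicates 1, 2 and 3. Mcm3 had 11.49, 6.78 and 5.49 TPM. Mcm4, a member of the catalytic core with Mcm6 and Mcm7, had 4.89, 2.07 and 1.84 TPM. In these 3 genes replicates 2 and 3 lay near each other and replicate 1 stood above both. Mcm5, which pairs with MCM2 at the gate of the ring, had 8.09, 2.68 and 3.11 TPM. Mcm6 had 15.70, 6.73 and 6.76 TPM. Mcm7 had 6.82, 2.01 and 3.27 TPM. Here too no value of replicate 2 or 3 reached that of replicate 1, and replicate 3 was level with or above replicate 2.

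The factors that act at the fork were also highest in replicate 1. Mcm10, which joins the helicase when it is activated and is not part of the ring, had 6.76, 3.95 and 4.05 TPM. Pcna had 36.28, 30.86 and 22.65 TPM, so its replicates 1 and 2 lay closer to each other than to replicate 3 on this scale.

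**Figure D1:**
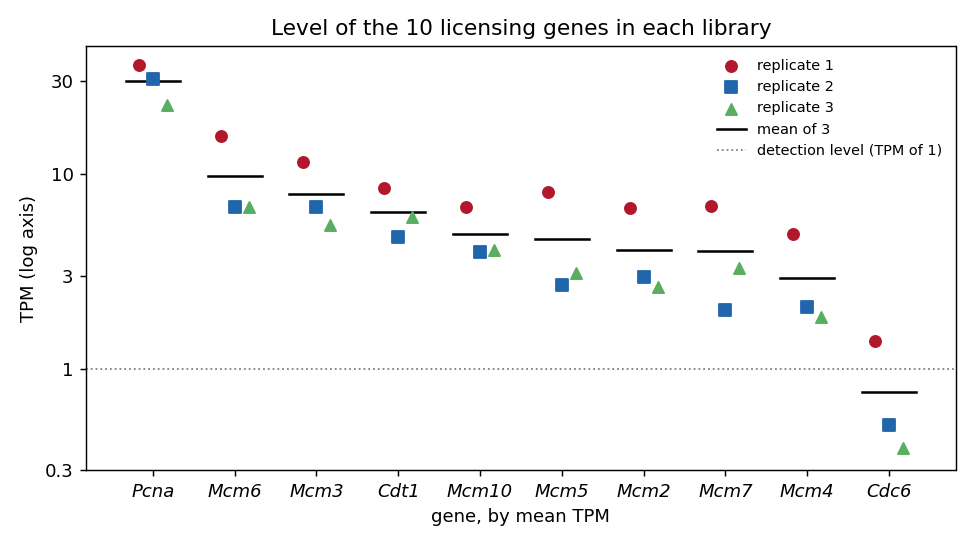
Level of each gene in TPM (log axis) in replicates 1, 2 and 3, with the mean of the 3 as a black line; the dotted line marks 1 TPM. Pcna sits above all others in every library, Cdc6 lies at or near the dotted line, and the red points of replicate 1 are the highest for each gene.

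The order by mean TPM was Pcna, Mcm6, Mcm3, Cdt1, Mcm10, Mcm5, Mcm2, Mcm7, Mcm4 and Cdc6. Between neighbours in this order, the ranges over libraries did not overlap for Pcna and Mcm6 or for Mcm4 and Cdc6, and overlapped for the other 7 pairs. Those ranges hold the shift of replicate 1 that all 10 genes share. Within libraries, Cdt1 was above Mcm10 in 3 of 3, although their ranges overlapped. Genes farther apart in the order could also be separate, as Mcm6, with at least 6.73 TPM, was from Mcm4, with at most 4.89. Pcna ranked first and Cdc6 last in each of the 3 libraries. A second quantification (kallisto-format TPM, rescaled over nuclear-encoded protein-coding genes) left Pcna, Mcm6, Mcm10, Mcm4 and Cdc6 in place by mean level. In it Cdt1 ranked 3, Mcm3 4, Mcm7 6, Mcm5 7 and Mcm2 8, so the order among these genes depends on the quantification. The products of Mcm2 to Mcm7 enter the ring in equal numbers, while their transcripts spanned a 3.42 ± 0.24-fold range of TPM from highest to lowest gene (SD, n = 3). That range was 3.21, 3.37 and 3.67 in replicates 1, 2 and 3, so it was narrowest in replicate 1.

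As a unit, the helicase genes lay below the typical detected gene in replicates 2 and 3. The mean of log2(TPM + 1) over Mcm2 to Mcm7 was 3.23, 2.16 and 2.19 in replicates 1, 2 and 3, or 2.53 ± 0.60 (SD, n = 3). The median of all detected nuclear-encoded protein-coding genes was 3.20, 3.36 and 3.18 in the same libraries. Thus the helicase genes stood at that median in replicate 1 and about a log2 unit below it in the others, while the median itself moved little. Pcna exceeded the geometric mean of Mcm2 to Mcm7 by 4.38, 9.12 and 6.48 times in TPM, 6.66 ± 2.37 (SD, n = 3). This excess was smallest in replicate 1, where the helicase genes were highest.

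To compare libraries, expected counts were rounded and scaled with edgeR's trimmed mean of M values (TMM), giving CPM (counts scaled to library size). Mcm5 had 26.3, 7.25 and 8.73 TMM-scaled CPM in replicates 1, 2 and 3, from 631, 144 and 182 expected counts. Replicate 1 was thus 3.62-fold above replicate 2 and 3.01-fold above replicate 3. Mcm7 had 18.0, 5.19 and 6.43 CPM, with replicate 1 above the others by 3.47-fold and 2.80-fold. Cdc6 had 6.25, 1.71 and 1.92 CPM, with 3.65-fold and 3.25-fold, resting on the fewest counts of the set. These 3 genes had the widest distance between replicate 1 and the rest.

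The other helicase genes followed with smaller folds. Mcm2 had 30.1, 10.5 and 11.3 CPM, Mcm4 had 24.5, 9.11 and 9.60, Mcm3 had 32.5, 13.1 and 14.9, and Mcm6 had 67.6, 24.2 and 29.9. Replicate 1 exceeded the next library by 2.67-fold for Mcm2, 2.56-fold for Mcm4, 2.26-fold for Mcm6, 2.18-fold for Mcm3 and 1.84-fold for Mcm10. Pcna had 64.7, 45.2 and 41.5 CPM, and Cdt1 had 23.7, 11.4 and 17.3 CPM. For both, replicate 1 was highest by less than 1.5-fold over the next library, 1.43-fold for Pcna and 1.37-fold for Cdt1.

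Counted by a fixed rule, 8 of the 10 genes were highest in replicate 1 by at least 1.5-fold over both other libraries, beside a background of 4.22% of the 14350 genes kept. No gene of the set met the rule in replicate 2 (background 3.56%) or replicate 3 (background 3.18%). At 1.2-fold all 10 met it in replicate 1 (background 12.6%), and at 2-fold 7 did (background 1.31%). Since the set was chosen with its levels in these libraries known, these counts describe it and support nothing further. With replicate 1 set aside, 1 gene, Cdt1, differed by at least 1.5-fold between replicates 2 and 3 (it was higher in replicate 3), and that held for 10.1% of all genes in the same direction. The median of replicate 1 minus the mean of the others was 1.36 on the log2 scale over the set, with every gene between 0.58 and 1.79. Over all genes kept it was 0.002, a median that TMM scaling itself brings near 0, and single genes ran from -3.17 to 5.47.

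**Figure D2:**
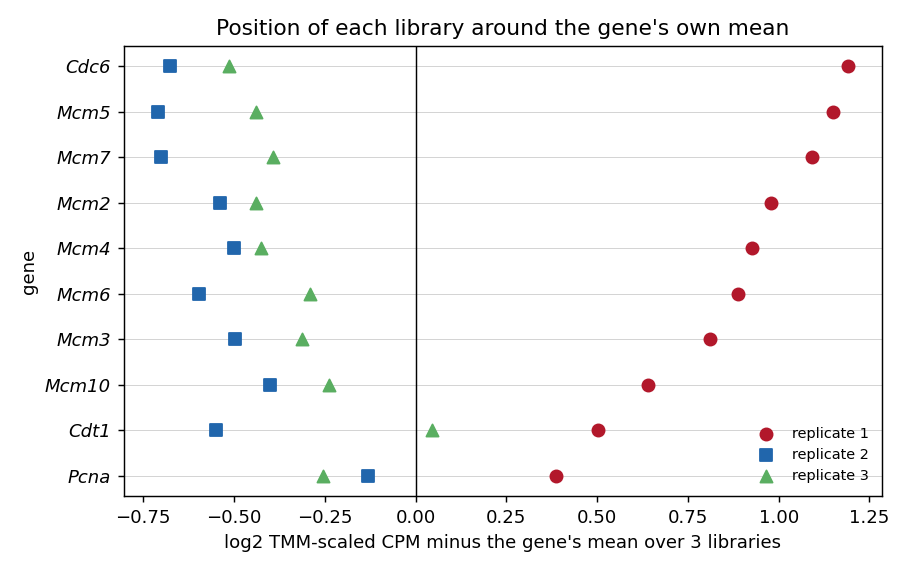
Each point is a library's log2 TMM-scaled CPM minus the gene's own mean over the 3 libraries, with genes ordered by replicate 1. Replicate 1 lies to the right of 0 for all 10 genes, and replicates 2 and 3 lie close together except for Cdt1.

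The spread between libraries, given by edgeR as the biological coefficient of variation (BCV, the relative spread left after counting noise), placed every gene of the set above the trend for its abundance, beside a background of 27.3% of genes. Cdc6 had a BCV of 0.440 where the trend was 0.265, Mcm5 had 0.409 where it was 0.208, and Mcm7 had 0.398 where it was 0.220. Pcna lay nearest to the trend, with 0.196 against 0.178. The median over the set was 0.337, beside a common BCV of 0.213 over all genes. Without replicate 1 the median fell to 0.208. Against the trend of the 3-library fit, 6 of the 10 genes then still lay above it (Mcm2, Mcm4, Mcm5, Mcm6, Mcm7 and Cdt1), with Mcm5 at 0.221 and Mcm7 at 0.232 the farthest above. Mcm2 (0.2019 against 0.2017) and Mcm6 (0.1805 against 0.1803) were in effect level with it. Since this sets a BCV without replicate 1 beside a trend fitted with it, and no share of all genes was computed, the count is descriptive only. Against a trend refitted without replicate 1, 1 gene of the 10, Cdt1, lay above, beside 25.8% of all genes. Without replicate 2 the numbers were 9 and 10 against the original and the refitted trend, and without replicate 3 they were 10 and 10. Of all genes, 24.55% lay above the refitted trend without replicate 2 and 25.1% without replicate 3.

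**Figure D3:**
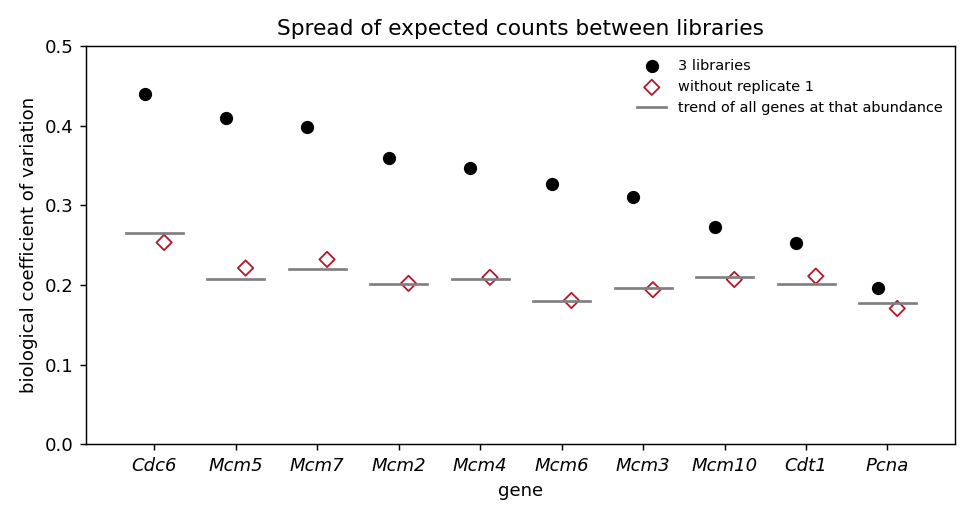
BCV of each gene over the 3 libraries (black circles) and without replicate 1 (open diamonds), with the trend of all genes at that abundance in the 3-library fit as grey lines. Cdc6, Mcm5 and Mcm7 lie farthest above their lines, and the diamonds lie at or near them, 6 of them above, Mcm2 and Mcm6 barely so.

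Some properties of the libraries were highest in replicate 1, as these genes were, and others were not. Their part in the result was not tested. Expected counts over annotated genes were 23826101, 19312032 and 21730342 in replicates 1, 2 and 3, so replicate 1 was the deepest, while the RNA input of replicates 1 and 3 was the same. Mitochondrial mRNA took 4.25%, 4.98% and 2.30% of counts in replicates 1, 2 and 3. All 12 macrophage markers were detected, with a summed level of 5716, 4853 and 4265 TPM in replicates 1, 2 and 3, highest in replicate 1. Their median log2(TPM + 1) was 7.85, 7.85 and 7.60, so it was level in replicates 1 and 2. By CPM, 3 of the 12 were highest in replicate 1 by at least 1.5-fold, beside 4.22% of all genes (Adgre1, C1qa and Itgam, singled out after their values were seen). By TPM, Cd68, Csf1r and Mertk were highest in replicate 2, Fcgr1 and Spi1 in replicate 3, and the rest in replicate 1. By CPM, Cd68 and Csf1r were highest in replicate 1. On that scale 11 of the 12 markers lay above the log2 mean of the other libraries in replicate 1, beside 50.3% of all genes. Markers of hematopoietic progenitors, the cycling precursors of these cells, were not detected (0 of 6), with a summed level of 1.41, 1.97 and 1.21 TPM. Granulocyte markers (0 of 8 detected) summed to 5.37, 4.11 and 2.40 TPM and lymphocyte markers (0 of 8) to 0.29, 0.04 and 0.12 TPM, both highest in replicate 1. Fibroblast markers (0 of 6) summed to at most 0.32 TPM and erythroid markers (1 of 6) to at most 3.33 TPM.

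Partners that work beside these genes at the origin did not all show the pattern. In the list of pre-replicative complex partners, which holds the origin recognition complex, geminin and MCM-binding protein, 10 of 10 genes were detected. Of these, 0 of 10 were highest in replicate 1 by at least 1.5-fold, which is near the background of 4.22%. At 1.2-fold 4 of 10 were (background 12.6%), and 8 of 10 lay above the log2 mean of the other libraries. Orc6 and Gmnn (geminin) were 1.65-fold and 1.64-fold above the geometric mean of the others. Orc4 had 22.34, 28.90 and 20.78 TPM and Orc3 had 20.70, 26.75 and 22.75 TPM, each higher than every helicase subunit in the same library. Mcmbp, which binds free MCM complexes, had 11.83, 10.35 and 10.77 TPM. Orc1, the origin recognition subunit whose level is tied to the cell cycle, was the lowest detected partner, with 2.20, 1.90 and 1.44 TPM. Of the other genes with MCM in their names, Mcm9, a helicase of recombination, had 7.95, 9.87 and 8.05 TPM, and Mcm3ap, an RNA export factor that is no helicase subunit, had 8.55, 8.31 and 10.73 TPM. Mcmdc2, a meiotic relative, was below the threshold at 0.88, 0.81 and 0.80 TPM. Of these 4 genes, 1 was highest in replicate 1 by at least 1.5-fold, Mcm8, at 0.73, 0.31 and 0.22 TPM.

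Genes that act after licensing fall into lists for helicase activation and for DNA synthesis. For every pathway list, the background for detection was 42.8% of nuclear-encoded protein-coding genes. The background for the 1.5-fold rule in replicate 1 was 4.22% of genes kept. For helicase activation, 13 of 20 genes were detected and 10 of 20 were highest in replicate 1 by at least 1.5-fold. Topbp1, the scaffold that brings activation factors together, had 15.23, 11.97 and 9.51 TPM, Timeless, of the fork protection complex, had 12.84, 4.47 and 9.15, and Cdk2, the S-phase kinase, had 9.26, 9.17 and 7.35. Ccne2, a cyclin partner of CDK2, was the lowest detected, at 1.43, 1.19 and 1.13 TPM. For DNA synthesis and clamp loading, 24 of 27 were detected and 13 of 27 were highest in replicate 1. The most abundant of these were not among the 13: Rfc2 and Rfc1, subunits of the loader that places PCNA on DNA, had 30.58, 42.31 and 38.25 TPM and 10.47, 11.74 and 11.71 TPM, and Pold3, a polymerase delta subunit, had 18.24, 20.36 and 17.56 TPM. Pole2, of polymerase epsilon, was the lowest detected at 1.60, 1.59 and 1.19 TPM.

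The remaining lists cover nucleotide supply, turnover of licensing factors and regulation, and no test compared one list with another. For nucleotide supply, 5 of 9 genes were detected and 3 of 9 (Dut, Rrm1 and Rrm2) were highest in replicate 1 by at least 1.5-fold. Samhd1, which breaks down deoxynucleotides, had 277.0, 328.9 and 352.9 TPM, lowest in replicate 1, and Dck, a salvage kinase, had 19.73, 21.11 and 22.25 TPM. Tk1, the salvage kinase linked to S phase, had 10.86, 8.77 and 9.00 TPM. For turnover of CDT1 and PCNA, 12 of 13 were detected and 2 of 13 (Dtl and Rad18) were highest in replicate 1. Cdkn1a, the p21 inhibitor that binds both CDKs and PCNA, had 55.65, 53.44 and 33.51 TPM, above Pcna itself in every library. Ddb1 and Cul4a, parts of the ligase that destroys CDT1 on chromatin, had 22.34, 21.02 and 17.77 TPM and 16.18, 17.74 and 18.82 TPM.

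In the list of E2F and RB genes 11 of 15 were detected and 2 of 15 (E2f7 and E2f8) were highest in replicate 1 by at least 1.5-fold. E2f7 was highest in replicate 1 by CPM but not by TPM, where it had 0.55, 1.43 and 0.21. Rb1, which holds activating E2Fs in check, had 17.26, 19.46 and 14.11 TPM, Rbl1 had 9.87, 11.14 and 12.91, and Rbl2 had 10.28, 13.52 and 9.13. For G1 cyclins, kinases and inhibitors, 9 of 12 were detected and 1 of 10 kept for the count comparison was highest in replicate 1, Ccnd1 (cyclin D1), at 32.15, 9.85 and 11.30 TPM. In the same list 2 of 10, the inhibitor genes Cdkn1b and Cdkn1c, were highest in replicate 2 (background 3.56%). They had 5.51, 9.73 and 5.49 TPM and 0.56, 1.06 and 0.31 TPM. Cdk6 and Cdk4, the kinases that cyclin D binds, had 22.17, 22.80 and 20.71 TPM and 16.53, 23.62 and 22.57 TPM. For G2 and mitosis 6 of 20 were detected, and 16 of 20 when TPM was rescaled over nuclear-encoded protein-coding genes. In this list 6 of the 17 kept were highest in replicate 1, beside 4.22% of all genes. Only 1 (Cenpf) was highest in replicate 2 and 1 (Tpx2) in replicate 3, near the backgrounds of 3.56% and 3.18%. Top2a, the topoisomerase of dividing cells, had 7.43, 3.58 and 3.06 TPM, highest in replicate 1, whereas Mki67, which encodes Ki-67, had 3.82, 4.58 and 3.60 and Kif23 had 1.38, 4.08 and 2.11. These list counts rest on TMM-scaled CPM. By deposited TPM the numbers highest in replicate 1 were lower for some lists, and the background was 3.24% in place of 4.22%. They were 9 of 27 for DNA synthesis, 7 of 20 for helicase activation and 4 of 17 for G2 and mitosis. Nucleotide supply had 2 of 9, and turnover and E2F and RB had 1 each. The licensing set (8 of 10), pre-replicative partners (0 of 10) and other MCM family genes (1 of 4) kept their numbers. So did the G1 list (1 of 10) and the macrophage markers (3 of 12). Median differences of replicate 1 from the others, on the log2 scale, were 0.78 for DNA synthesis, 0.68 for helicase activation, 0.55 for G2 and mitosis, 0.40 for nucleotide supply and for pre-replicative partners, 0.32 for E2F and RB, 0.26 for turnover and 0.09 for G1, beside 1.36 for the licensing set and 0.25 for macrophage markers.

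**Figure D4:**
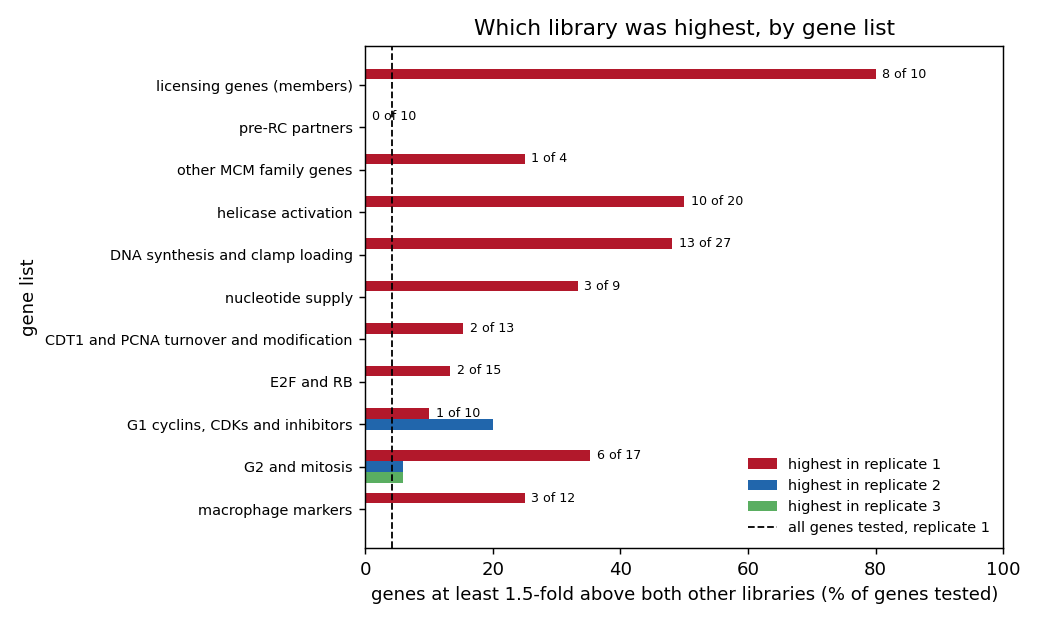
Share of each gene list that was highest in 1 library by at least 1.5-fold over both others in TMM-scaled CPM, with the number in replicate 1 written beside its bar and the share of all genes (4.22% in replicate 1) as a dashed line. The licensing genes reach 8 of 10, helicase activation 10 of 20 and DNA synthesis 13 of 27, whereas the partners of the pre-replicative complex have 0 of 10.

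The 5 genes of those lists whose values across the 3 libraries lay nearest to the mean pattern of Mcm2 to Mcm7 were found by Euclidean distance between centred log2 TMM-scaled CPM, among 123 candidates. The mean pattern of the helicase genes was 0.97, -0.59 and -0.38 in replicates 1, 2 and 3. Lig1, the ligase that seals Okazaki fragments, was nearest at a distance of 0.090, with 0.96, -0.65 and -0.31. Rfc4, a clamp loader subunit, followed at 0.157 and Rpa2, of the single-strand binding complex, at 0.164. Ticrr, which brings CDC45 to the helicase, lay at 0.197 and Chaf1a, of the histone chaperone that PCNA recruits, at 0.227. Among kept genes with a mean of at least 20 expected counts, 0.029% had a distance as small as that of Lig1. For Chaf1a the share was 0.299%. These genes include the helicase genes themselves, and the 5 genes were picked for being nearest, so small shares follow from the choice. With 3 libraries the distance rests on very few points, and the counts of Rfc4 were low (39.5, 13.0 and 15.2).

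Because the RNA is nuclear, part of it is expected to be unfinished, and the transcript tables separate isoforms annotated as retaining an intron. Over the 9 genes of the set with such an isoform (Mcm4 has none), the median share of transcript TPM on them was 23.9% ± 1.9 (SD, n = 3), beside 24.0% ± 0.44 (SD, n = 3) over 5980 genes with such an isoform. The share varied widely within the set. Mcm10 had 63.3%, 67.6% and 51.2% in replicates 1, 2 and 3, the highest of the set, and Mcm3 had 40.6%, 55.2% and 44.8%. Cdt1 had 38.2%, 39.5% and 25.4%, Mcm7 had 32.2%, 24.5% and 36.1%, and Mcm5 had 21.8%, 21.9% and 38.1%. Pcna had 19.2%, 26.6% and 20.1% and Mcm2 had 16.2%, 23.6% and 22.4%. Mcm6 stood apart at 3.76%, 4.90% and 2.07%, and the retained-intron isoform of Cdc6 was listed at 0 in every library. The ranges of Mcm10 and Mcm3 overlapped, as did those of neighbours in the order Cdt1, Mcm7, Mcm5, Pcna and Mcm2, while Mcm3 did not overlap Cdt1 and Mcm2 did not overlap Mcm6.

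**Figure D5:**
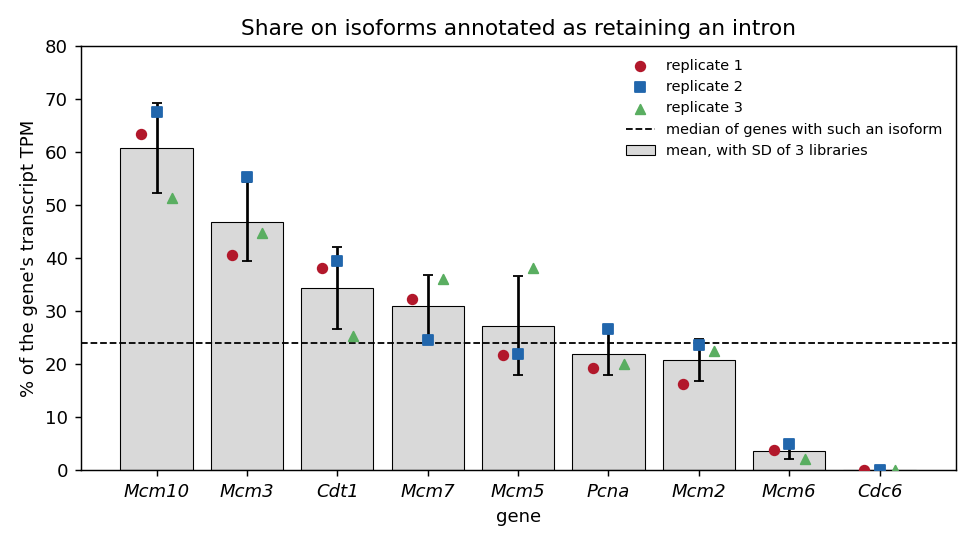
Share of each gene's transcript TPM on isoforms annotated as retaining an intron; bars are means with the SD of 3 libraries, points are the libraries, and the dashed line is the median of all genes with such an isoform (24.0%). Mcm10, Mcm3, Cdt1 and Mcm7 lie above the line in every library and Mcm2, Mcm6 and Cdc6 below it.

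The isoforms behind these shares were mostly short fragments, and their share of the gene's expected counts was smaller and ordered the genes otherwise. By counts it was 37.1% ± 5.3 for Mcm10, 29.99% ± 8.0 for Cdt1, 13.4% ± 5.3 for Mcm7 and 12.4% ± 2.6 for Mcm3 (SD, n = 3). Mcm3, next to the highest by TPM, thus ranked below Cdt1, Mcm7 and Pcna by counts, and Pcna had 12.6% ± 3.3 (SD, n = 3). Mcm2 had 11.7% ± 0.4, Mcm5 had 6.30% ± 3.59 and Mcm6 had 0.326% ± 0.125 (SD, n = 3). For Mcm10, transcript Mcm10-204 held 28.2% ± 7.8 of the gene's TPM (SD, n = 3), of which 29 of 1343 bases are intronic to the main coding transcript. Mcm10-203, which keeps intron 10 whole and part of intron 11, held 7.64% ± 0.23 (SD, n = 3). For Mcm3 the share was carried by Mcm3-205, with 1.25, 3.27 and 1.85 TPM, and Mcm3-203, with 3.30, 0.31 and 0.48, so that the leading fragment differed between replicate 1 and the others. Only 26 of 607 bases of Mcm3-205 and 67 of 716 bases of Mcm3-203 are intronic, and neither keeps a whole intron. By RSEM-format values, the high shares of Mcm3 and in part of Mcm10 thus rest on fragments that are almost wholly exonic. For Pcna it was carried by Pcna-204, which reads into intron 4 and had 3.85, 6.73 and 1.99 TPM. Mcm7-202 reads into intron 13, where the hairpins of Mir25 and Mir93 lie (chr5:138165321-138165404 and chr5:138165523-138165610, mm10), and had 0.89, 0.34 and 0.61 TPM. The hairpin genes Mir25, Mir93 and Mir106b were themselves listed at 0. In Mcm6 the intronic signal was instead on Mcm6-203, annotated as coding, which keeps the last intron, intron 16, and held 14.5% ± 1.7 of the gene's TPM (SD, n = 3). For Cdc6, the isoform annotated for nonsense-mediated decay, Cdc6-203, had 0.14, 0 and 0.08 TPM, or 10.2% ± 10.3 of the gene (SD, n = 3), so its share was not separated from 0.

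Measured over the mean of the other libraries, the higher level in replicate 1 was on both classes of isoform for most of the set. By TMM-scaled counts, the coding isoforms of Mcm2 were 2.79-fold higher in replicate 1 than in the mean of the others and its retained-intron isoforms 2.59-fold. For Mcm6 the folds were 2.50 and 2.66, the second from at most 5.36 counts a library. For Mcm7 they were 3.25 and 2.25, for Mcm5 3.40 and 1.96, for Mcm3 2.40 and 1.78, and for Mcm10 2.40 and 1.5. Pcna had 1.55 for coding and 1.15 for retained-intron isoforms, the latter highest in replicate 2 (6.85, 7.41 and 4.51 CPM). In Mcm7, Mcm5, Mcm3, Mcm10 and Pcna the coding class had the larger fold. Cdt1 went the other way, with 1.48 for coding isoforms (15.6, 7.41 and 13.7 CPM in replicates 1, 2 and 3) and 2.12 for retained-intron isoforms (8.07, 4.02 and 3.58 CPM). In the RSEM-format counts the coding isoform of Cdt1 was thus low in replicate 2 alone, and its retained-intron isoforms were high in replicate 1 alone. The split of Cdt1 between these classes depended on the quantification (below), and their levels by library were not compared in the other one.

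Quantification from the kallisto-format tables gave similar shares for Mcm10 and Mcm3 and other shares for Cdt1 and Mcm6. Mcm10 had 60.7% ± 4.8 there and Mcm3 40.7% ± 11.8 (SD, n = 3). Cdt1 had 68.0% ± 5.2 in place of 34.4% ± 7.8, and Mcm6 had 18.3% ± 8.2 in place of 3.58% ± 1.43 (SD, n = 3). The isoform shares of Cdt1 and Mcm6, and the split between isoforms of Mcm10, therefore depend on the quantification. For Cdt1 the difference lay mostly on Cdt1-205, which keeps intron 4, with 19.5% of TPM in the RSEM-format tables and 49.8% in the kallisto-format ones.

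Neighbouring genes and sequence copies set a limit on some values. Mcm7 (chr5:138164583-138172422, minus strand, mm10) overlaps Cops6 and Ap4m1 on the other strand by 64 and 321 exon bases, and no source used here says whether counting used strand. Ap4m1 had 7.44, 8.64 and 6.66 TPM and Cops6 6.40, 6.04 and 5.22, neither of which was highest in replicate 1 by the margin seen for Mcm7. Of the main coding transcript of Mcm7, 47.6% of 31-base words also occur in other genes, mainly the pseudogene Gm5487, which had at most 0.02 TPM. For Pcna (chr2:132249162-132253314, minus strand) the share was 37.97%, shared with Pcna-ps2, which had 0.11, 0.30 and 0.17 TPM, and Pcna-ps1 was listed at 0. For Cdc6 (chr11:98907801-98923940, plus strand) it was 18.2%, with Gm9430, listed at 0. It was 5.34% for Mcm4 (chr16:15623897-15637400, minus strand) and 2.19% for Mcm6 (chr1:128331590-128359664, minus strand), with pseudogenes listed at 0. Reads in those stretches could be split between copies, so the levels of Mcm7, Pcna and Cdc6 are less certain than the rest. No such word was shared for Mcm2 (chr6:88883474-88898780, minus strand), Mcm3 (chr1:20802968-20820312, minus strand), Mcm5 (chr8:75109569-75128439, plus strand), Mcm10 (chr2:4989714-5012791, minus strand) or Cdt1 (chr8:122568015-122573554, plus strand).

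Protein-coding genes next to the set on the chromosome did not meet the 1.5-fold rule. Prkdc, which starts beside Mcm4 on the opposite strand and encodes the DNA-dependent protein kinase, had 2.94, 3.36 and 2.44 TPM. Tmem230 beside Pcna had 13.43, 19.98 and 11.02 TPM, and Wipf2 beside Cdc6 had 5.02, 7.01 and 5.22, both highest in replicate 2. Aprt beside Cdt1 had 19.90, 19.36 and 17.85 TPM, and Gm20388, a read-through model that spans Cdt1 without sharing exon bases, had 13.59, 14.85 and 12.03. None of these 5 neighbours was highest in replicate 1 by 1.5-fold in TPM, a rule that 3.24% of all genes kept met, so that a count of 0 of 5 sets them apart from no other genes.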

How the data were processed

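Nuclear RNA of 3 libraries was analysed. Per the file headers and the notes beside the files, the authors made the gene and transcript tables from alignments to the transcriptome (mm10, GENCODE M21). The columns are RSEM's; tool, version and use of strand are not stated in the sources used. The deposited expected counts are the authors' estimates per gene or transcript, without normalization. The deposited TPM values were scaled by the authors for length and to a fixed sum in each library, so abundant short RNAs lower the TPM of other genes. A second transcript table, with the estimated counts and TPM columns that kallisto writes, was made by the authors from the reads, per the notes.

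The members and lists were chosen with earlier results of these data known. Named genes were all 10 members, the 3 highest and the lowest detected gene of each of 9 pathway lists (some are not reported here), genes that flank, overlap or copy a member, and the 5 nearest in pattern. Rows that are no annotated gene held 0.827%, 0.275% and 0.0547% of counts in replicates 1, 2 and 3 and were left out. Expected counts were rounded, filtered with filterByExpr and scaled by TMM in edgeR 4.0.16 (R 4.3.3), whose fit with an intercept only gave the BCV and no p. Counts of 34 to 1623 a member and library set the precision. Levels used log2(TPM + 1). Alternatives covered the pseudocount, thresholds, scaling, DESeq2 1.42.0, the quantification and each replicate left out. Intron contact needed at least 20 intronic bases. Sequences came from RefSeq windows (GRCm38.p6). The scripts were tested on simulated counts. Libraries differed by far more than sampling noise, with a chi-square per gene of 58.6 to 81.4.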

Additional observations from a re-analysis of the deposited data

How the results depend on the processing

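No paired analysis was possible because the study has 1 group. The level of Mcm2 to Mcm7, 2.53 as mean log2(TPM + 1), became 4.54 when TPM was rescaled over nuclear-encoded protein-coding genes and 4.47 with rescaled kallisto-format TPM, since the rescaling raises the TPM of all such genes; it was 2.18 to 2.71 with each replicate left out. The log2 ratio of Pcna to Mcm2 to Mcm7 was 2.40 and stayed between 2.18 and 2.60 with each replicate left out. The median retained-intron share, 23.9%, was 31.4% from kallisto-format TPM and 11.4% from RSEM-format counts, and 23.1% to 24.9% with each replicate left out. The median BCV was 0.208 to 0.311 with each replicate left out, lowest without replicate 1; the comparison with a refitted trend was added after the data were seen. In a comparison also added after the data were seen, 9 genes were at least 1.5-fold higher in replicate 1 with replicate 2 or replicate 3 left out (8.99% and 11.2% of all genes), and 1 gene was so in replicate 3, and 0 in replicate 2, with replicate 1 left out. The number highest in replicate 1 was 8 from deposited TPM (background 3.24%) and from DESeq2 size factors (background 4.19%). Detected members numbered 9, 8 and 10 at 0.5 TPM, at 2 TPM and after rescaling. No share of all genes was computed at these detection settings, so these counts stand without a background. The 9 pathway lists together had 92 of 130 gene entries detected, and 123 after rescaling, so the list counts depend on the TPM scale. Rescaling gave 19 of 20 for helicase activation and 9 of 9 for nucleotide supply. For markers it gave 4 of 8 for granulocytes and 1 of 6 for progenitors. Counts limit Cdc6 most, with 34 and 40 in replicates 2 and 3.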
